A study of Mus musculus with 14 samples.

Results

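The genes examined were 8 genes of the dystrophin-associated protein complex and its partners: Dmd, Utrn, Dag1, Sgca, Sgcb, Sgcd, Dtna and Lama2. They were followed through 10 lists of chromatin immunoprecipitation (ChIP-seq) peaks from C2C12 cells, a mouse myoblast line that fuses into myotubes when serum is lowered. A peak was counted for a gene when the authors' annotation named that gene as the one with the nearest transcription start. By that rule 569 of 517016 nuclear peaks belonged to the 8 genes, which is 0.110% of all peaks, and the 8 genes are 8 of the 21896 protein-coding genes in the RefSeq table used for spans.

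Every library came from C2C12 cells on day 2 of differentiation, and no animal or donor was involved. All cells were grown with 20% fetal bovine serum and differentiated with 2% horse serum. Control cells were compared with cells that had received a small interfering RNA against Myolinc, a long noncoding RNA, at 10 nM (siMyolinc). For the siMyolinc libraries a time of 24 hours after transfection is given. Whether the control cells had been given an siRNA of another sequence is not stated. The antibodies were against TDP-43 (an RNA- and DNA-binding protein), MyoD and Myogenin (transcription factors of muscle differentiation) and elongating RNA polymerase II, which carries a phosphate at serine 2 of its repeated tail and is written Pol II S2P here. TDP-43 had 3 control libraries and 1 siMyolinc library, and each other antibody had 1 library per condition. Knockdown comparisons for MyoD, Myogenin and Pol II S2P therefore have no replicate check, and whether the 3 TDP-43 controls came from separate cultures is not stated.

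Dystrophin, encoded by Dmd, ties the actin cytoskeleton of the muscle fibre to a group of proteins in the plasma membrane. Dag1 encodes dystroglycan, whose outer part binds laminin in the basement membrane, and Lama2 encodes the laminin chain that it meets around muscle fibres. The sarcoglycans (Sgca, Sgcb and Sgcd) form a subcomplex that stabilises this link, dystrobrevin (Dtna) binds dystrophin inside the cell, and utrophin (Utrn) is a relative of dystrophin found at the neuromuscular junction. Loss of dystrophin, of a sarcoglycan or of this laminin chain causes muscular dystrophy.

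The lists differed in length and depth, so counts between lists are not comparable as such. They held 8162 to 116064 peaks, and the peak scores corresponded to libraries of 962387 to 3774956 tags if scores were scaled to 10000000 tags. The median peak held 6 to 24 tags in 9 lists and 137 in the Myogenin siMyolinc list. The MyoD siMyolinc and Myogenin siMyolinc lists had a median peak width of 75 bp, against 217 to 249 bp in the other 8 lists. No RNA was measured. As a check of the cell type, 3 of 8 muscle marker genes and 2 of 6 genes of other cell types had a Pol II S2P peak in the control list, and 7 of 8 and 5 of 6 had one in the siMyolinc list, so these peaks do not separate muscle genes from others.

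The place that the TDP-43 controls shared most clearly on these genes was the start of Sgcd, which encodes delta-sarcoglycan. All 3 TDP-43 control lists held a peak called promoter-TSS there, and the siMyolinc list held none. The promoter bases that these peaks reach into are shown first, with the upstream bases of Dag1 and Lama2, the other members that had a promoter-TSS or exon 1 peak and an entry in the promoter table. Each line gives the 250 bases before the start in the RefSeq table (build GRCm38.p6, minus strand, 5′ to 3′). Capitals mark every CANNTG, the E-box letters bound by MyoD and Myogenin, and would also mark TGTGTGTG or CACACACA, the repeat that TDP-43 is known to bind, which occurred in none of the 3.

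Sgcd (chr11:47379326-47379575): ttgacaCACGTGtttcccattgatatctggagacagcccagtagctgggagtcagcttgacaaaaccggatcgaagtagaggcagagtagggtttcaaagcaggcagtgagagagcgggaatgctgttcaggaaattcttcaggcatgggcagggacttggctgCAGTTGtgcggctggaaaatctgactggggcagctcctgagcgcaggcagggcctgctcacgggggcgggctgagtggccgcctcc
Dag1 (chr9:108263959-108264208): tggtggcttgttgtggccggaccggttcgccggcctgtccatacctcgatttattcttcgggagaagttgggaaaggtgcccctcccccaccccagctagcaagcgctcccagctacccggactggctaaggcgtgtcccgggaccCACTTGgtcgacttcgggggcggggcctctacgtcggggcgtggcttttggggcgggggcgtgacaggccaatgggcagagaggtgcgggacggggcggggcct
Lama2 (chr10:27616943-27617192): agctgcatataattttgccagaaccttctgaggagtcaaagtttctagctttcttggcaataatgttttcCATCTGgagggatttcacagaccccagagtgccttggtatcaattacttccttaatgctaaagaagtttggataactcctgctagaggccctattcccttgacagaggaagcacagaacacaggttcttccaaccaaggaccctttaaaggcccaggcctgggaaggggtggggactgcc

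The Sgcd window held CACGTG with its first base 244 bases before the start and CAGTTG 86 bases before it. The Dag1 window held CACTTG 104 bases before the start, and the Lama2 window held CATCTG 180 bases before it. CANNTG is common: it occurred on either strand in 66.2% of the 32851 promoter windows of that table. None of the 3 windows held CAGCTG, found in 13.0% of all windows, or CAGGTG or CACCTG, found in 17.2%. TGTGTGTG or CACACACA occurred in 3.55% of all windows. A match, or its absence, describes these letters in this window alone.

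In TDP-43 control replicate 1 the Sgcd peak spanned chr11:47379176-47379424, held 11 tags (95% Poisson interval 5.49 to 19.7) and was centred 2 bp after the start. In replicate 2 it spanned chr11:47379223-47379441, held 8 tags (3.45 to 15.8) and was centred 30 bp before the start. In replicate 3 it spanned chr11:47379249-47379467, held 5 tags (1.62 to 11.7) and was centred 56 bp before the start. All 3 peaks had 176 bp in common, from 47379249 to 47379424, and in replicates 2 and 3 each was the best-scoring peak of the 8 genes. In replicate 1 it tied with a peak of 11 tags in a LINE repeat upstream of Dmd, at chrX:82532217-82532465. Within their whole lists they ranked in the top 19.5%, 13.9% and 63.6%, so the peak of replicate 3 was an ordinary one for its library. In replicate 3 it was the only peak named for any of the 8 genes. The 3 peaks reached over 99, 116 and 142 of the 250 printed bases, on the side next to the start.

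After Myolinc knockdown the nearest TDP-43 peak named for Sgcd lay 8745 bp before the start and held 6 tags, and the lowest peak listed in that library held 5 tags. The siMyolinc library was deeper than each control, with 3253044 tags against 962387 to 1394415. Of all protein-coding genes, 62 (0.283%) had a promoter-TSS peak in all 3 TDP-43 controls, and 57 of them (0.26%) had none after knockdown. The absence of the Sgcd peak after knockdown was thus shared with nearly all genes of that kind, and it rests on 1 knockdown library. In single lists a promoter-TSS peak was named for 5.08%, 2.11% and 1.64% of protein-coding genes in the 3 controls and for 2.5% after knockdown.

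The Pol II S2P siMyolinc list also held a promoter-TSS peak at Sgcd, at chr11:47379461-47379679, with 13 tags and its centre 268 bp before the start. It covered 115 of the printed bases, on the far side from the start, and overlapped the TDP-43 peak of replicate 3 only at its edge. In the Pol II S2P control list the nearest Sgcd peak lay 162245 bp before the start. MyoD and Myogenin peaks lay farther from the Sgcd start. The nearest MyoD peak lay 3277 bp before it in the control and 11712 bp after it with siMyolinc, and the nearest Myogenin peaks lay 5659 bp and 61159 bp after it.

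**Figure D1:**
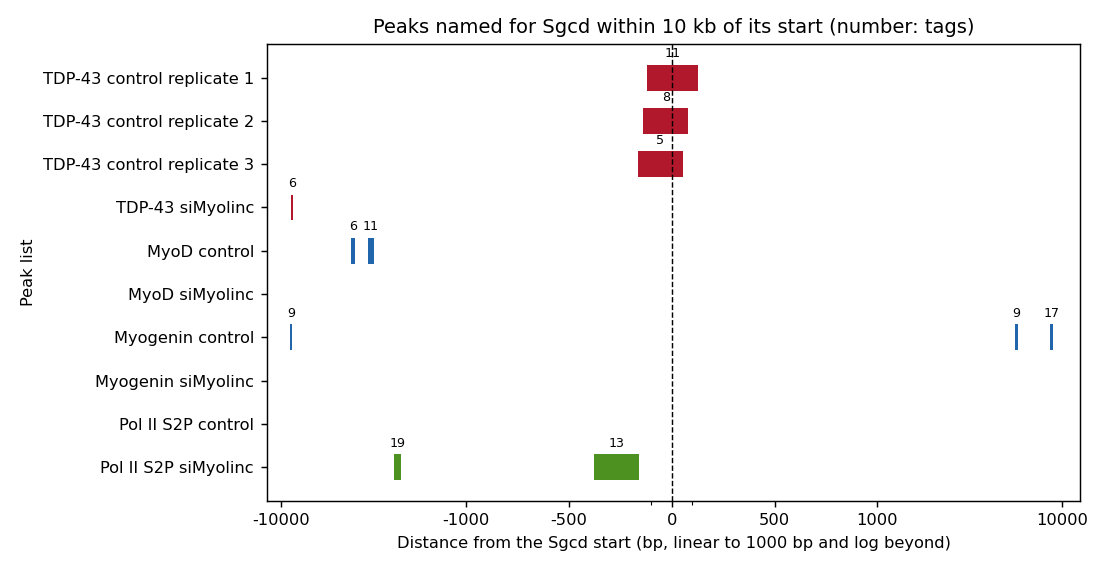
Peaks named for Sgcd within 10 kb of its start, one row per list; the horizontal axis is the distance in bp (linear near the start, logarithmic farther out), bars show the width of each peak and numbers its tags. The 3 TDP-43 control peaks lie across the start with 11, 8 and 5 tags, and the TDP-43 siMyolinc row is empty there.

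Other peaks at or near starts were single. Dag1, the dystroglycan gene, had a promoter-TSS peak in the Myogenin control list at chr9:108264284-108264502 with 14 tags, centred 435 bp before the start and upstream of the printed bases. Dtna had a promoter-TSS peak in the MyoD siMyolinc list, 16 tags, 99 bp before its outermost start, and another in the Pol II S2P siMyolinc list, 12 tags, 178 bp before a start inside the span. With Sgcd these made 7 promoter-TSS peaks on 3 of the 8 genes. By list, a promoter-TSS peak was named for 1 member in each TDP-43 control, in MyoD siMyolinc (background 11.2% of protein-coding genes) and in Myogenin control (6.45%), and for 2 in Pol II S2P siMyolinc (8.88%). It was named for none in the other 4 lists, where the background was 2.5% (TDP-43 siMyolinc), 4.01% (MyoD control), 2.44% (Myogenin siMyolinc) and 1.54% (Pol II S2P control).

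Lama2 had a TDP-43 peak in exon 1, at chr10:27616661-27616909 in control replicate 1, with 9 tags and its centre 157 bp after the start. It was in neither other control. A Pol II S2P siMyolinc peak with 14 tags lay 452 bp after the same start. For Utrn a MyoD siMyolinc peak of 18 tags lay in intron 1, 730 bp after an annotated start, and a Pol II S2P siMyolinc peak of 17 tags lay 1549 bp after one. For Dmd the nearest peaks were a MyoD siMyolinc peak of 23 tags 1482 bp after the start and a Myogenin control peak of 10 tags 2457 bp before it. Sgcb, beta-sarcoglycan, had a single named peak in all 10 lists, a Pol II S2P siMyolinc peak of 10 tags 1375 bp before the start.

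Over all lists, 302 of the 569 peaks were intronic, 104 of them in an intron numbered 1, 248 were intergenic, 12 were exonic and 7 were promoter-TSS. None was called TTS, 5′ UTR, 3′ UTR or non-coding. The long genes took nearly all of them: 556 of 569 (97.7%) were named for the 5 genes with a span of 100 kb or more (Dmd, Sgcd, Lama2, Utrn and Dtna), and 13 for Dag1, Sgca and Sgcb. The totals were 158 for Utrn (span 488 kb), 128 for Sgcd (1018 kb), 119 for Dmd (2390 kb), 76 for Lama2 (636 kb), 75 for Dtna (350 kb), 9 for Dag1 (59.1 kb), 3 for Sgca (13.6 kb) and 1 for Sgcb (15.0 kb).

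**Figure D2:**
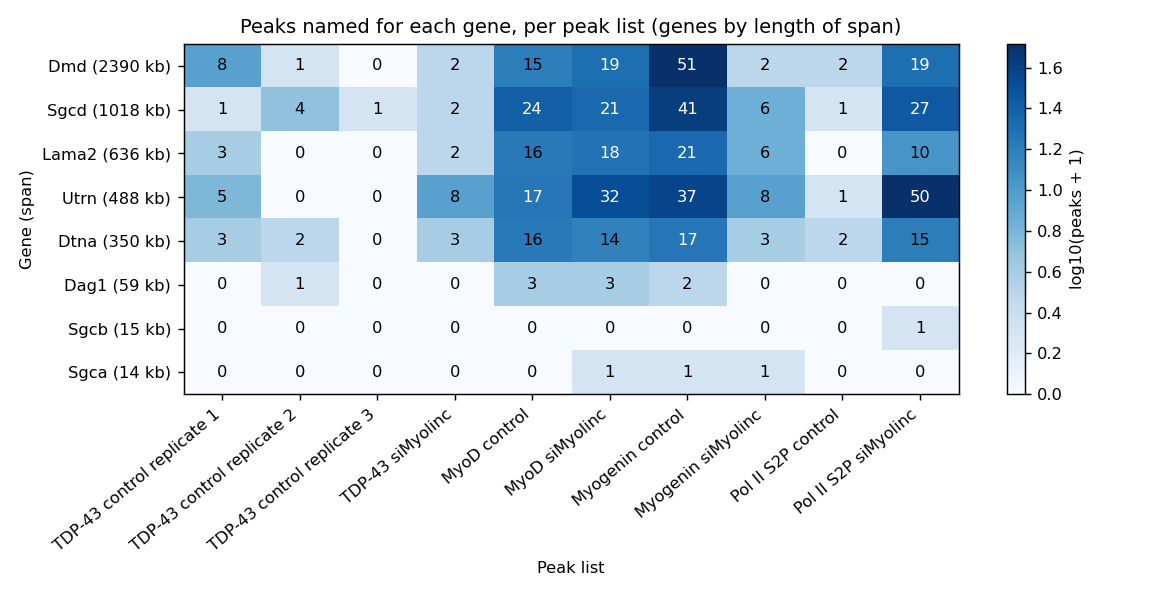
Number of peaks named for each of the 8 genes (rows, from the longest span to the shortest) in each of the 10 lists (columns); the colour is log10 of the count plus 1. The 5 genes of 100 kb or more hold most of the counts, with up to 51 peaks for Dmd in the Myogenin control list and 50 for Utrn in the Pol II S2P siMyolinc list.

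The number of the 8 genes with at least 1 named peak ranged from 1 to 7. It was 5, 4 and 1 in the TDP-43 controls, where 49.2%, 26.8% and 22.3% of protein-coding genes had one, and 5 in TDP-43 siMyolinc (45.1%). It was 6 in MyoD control (64.8%), 7 in MyoD siMyolinc (75.5%), 7 in Myogenin control (73%) and 6 in Myogenin siMyolinc (39.7%). It was 4 in Pol II S2P control (26.7%) and 6 in Pol II S2P siMyolinc (76.8%). Of the 5 long members, 5, 3 and 1 had a peak in the TDP-43 controls, where 76.8%, 47.7% and 39.3% of all protein-coding genes of 100 kb or more had one. In Pol II S2P control 4 of 5 had one (48.6%). All 5 had one in TDP-43 siMyolinc (78.4%), MyoD control (93.5%), MyoD siMyolinc (95.4%), Myogenin control (95.7%), Myogenin siMyolinc (73.4%) and Pol II S2P siMyolinc (95.3%).

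Member peaks made up a similar share of the TDP-43 lists in both conditions within the spread of the controls. The share was 6.73, 7.57 and 1.23 per 10000 peaks in the controls (mean 5.18 ± 3.45, SD, n = 3) and 6.81 after knockdown, inside the range of the controls. The ratio of siMyolinc to control was 1.32, and the exact two-sided permutation test gave p = 0.75, where 3 libraries against 1 can give no p below 0.25. Without control replicate 3, which held 1 member peak, the ratio was 0.952, and with every list cut to its 8162 best peaks it was 2.67 (p = 0.25, exact permutation test).

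For MyoD the share was 12.7 per 10000 peaks in the control and 9.86 after knockdown, a ratio of 0.779 with a 95% interval of 0.584 to 1.04. For Myogenin it was 14.8 and 12.7, a ratio of 0.860 (0.546 to 1.31). Leaving out Dmd turned that ratio to 1.13 (0.700 to 1.77), since 51 of the 170 Myogenin control peaks were named for Dmd against 2 of 26 after knockdown. Of these, 27 of the 51 and both of the 2 lay outside the span of Dmd. By centres inside that span the counts were 114 in the control and 6 after knockdown. For Pol II S2P it was 5.60 and 10.5, a ratio of 1.88 (0.838 to 5.22) that rests on 6 control peaks. These intervals cover counting error only, and each of the 3 for named peaks includes a ratio of 1. By centres inside the spans the ratio was 0.811 (0.632 to 1.04) for MyoD and 1.10 (0.625 to 2.11) for Pol II S2P. For Myogenin it was then 0.646, with an interval of 0.420 to 0.957 that lay below 1. In MyoD and Myogenin, narrower and higher peaks moved with the condition, and their part in the ratios was not tested.

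The tags of member peaks sat close to those of their lists. The median member peak held 6, 5.5 and 5 tags in the TDP-43 controls, where all peaks had medians of 8, 6 and 6, and 7 tags after knockdown, equal to that list's median. It held 8 in MyoD control and 15 in Myogenin control, equal to those lists' medians, and 23 in MyoD siMyolinc, where all peaks had a median of 24. It held 155 in Myogenin siMyolinc against 137 for all peaks, 5.5 in Pol II S2P control against 6, and 12 in Pol II S2P siMyolinc against 11.

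The best-scoring member peaks of 6 lists are given next. Each was picked as the highest of 17 to 170 member peaks of its list, so a high rank is partly built in by that choice. On Dmd, a peak in intron 1 at chrX:83016870-83017088 held 41 tags (29.4 to 55.6) in Myogenin control and ranked in the top 0.209%. On Utrn, a peak in intron 50 held 337 tags (302 to 375) in Myogenin siMyolinc and ranked in the top 0.152%, and a peak over exon 10 at chr10:12737998-12738216 held 30 tags (20.2 to 42.8) in Pol II S2P siMyolinc and ranked in the top 0.461%. On Sgcd, a peak in a SINE repeat of intron 2 held 59 tags (44.9 to 76.1) in MyoD siMyolinc (top 0.401%). In TDP-43 siMyolinc a peak in a retroviral repeat 105382 bp before the Sgcd start held 14 tags (7.65 to 23.5, top 0.685%). The best member peak of MyoD control held 17 tags (9.90 to 27.2) and lay in a LINE repeat 34590 bp before Dtna (top 1.08%). None of these 6 was overlapped by a peak of another list. The best of Pol II S2P control held 8 tags and lay in a retroviral repeat 663788 bp before Dmd (top 12.2%).

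The annotation classes of member peaks held a larger intronic part than those of all peaks in the lists with many member peaks. In MyoD siMyolinc, 61.1% of member peaks were intronic (Wilson interval 51.7 to 69.8) against 40.8% of all peaks. In Pol II S2P siMyolinc the values were 54.1% (45.3 to 62.7) and 41.6%, in Myogenin control 48.8% (41.4 to 56.3) and 38.1%, and in MyoD control 51.6% (41.5 to 61.6) and 40.2%. In each of these 4 lists the share over all peaks lay below the interval of the members. Of the member peaks 97.7% were named for genes of 100 kb or more. Peaks named for other long genes were not classed apart, so the part of gene length in these shares was not tested.

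The exonic part was smaller among member peaks than among all peaks in the TDP-43 controls. Over the 3 control lists, 1 of 29 member peaks was exonic (3.45%, 0.611 to 17.2), against 21.1% of all peaks. The comparison is again with genes of every length, and the part of gene length was not tested. Of the other 28, 12 were intronic, 13 intergenic and 3 promoter-TSS (10.3%, 3.58 to 26.4, against 4.64% of all peaks). TDP-43 siMyolinc had 11 intronic and 6 intergenic member peaks and no other class, with 6.93% of all its peaks in exons. Pol II S2P control also had no exonic member peak (upper limit 39.0%), with 21.4% of all its peaks in exons. In Pol II S2P siMyolinc the exonic part was 4.10% of member peaks and 3.76% of all peaks. Of the 12 exonic peaks of the 8 genes, 9 were on Utrn: exons 10, 17, 55 and 71 in Pol II S2P siMyolinc with 30, 10, 10 and 19 tags, exons 19, 21 and 44 in Myogenin control with 13, 19 and 7 tags, exon 11 in MyoD siMyolinc with 29 tags and exon 70 in Myogenin siMyolinc with 58 tags. Dtna had the remaining pair besides Lama2, exon 4 in MyoD control with 15 tags and exon 12 in Pol II S2P siMyolinc with 21 tags.

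**Figure D3:**
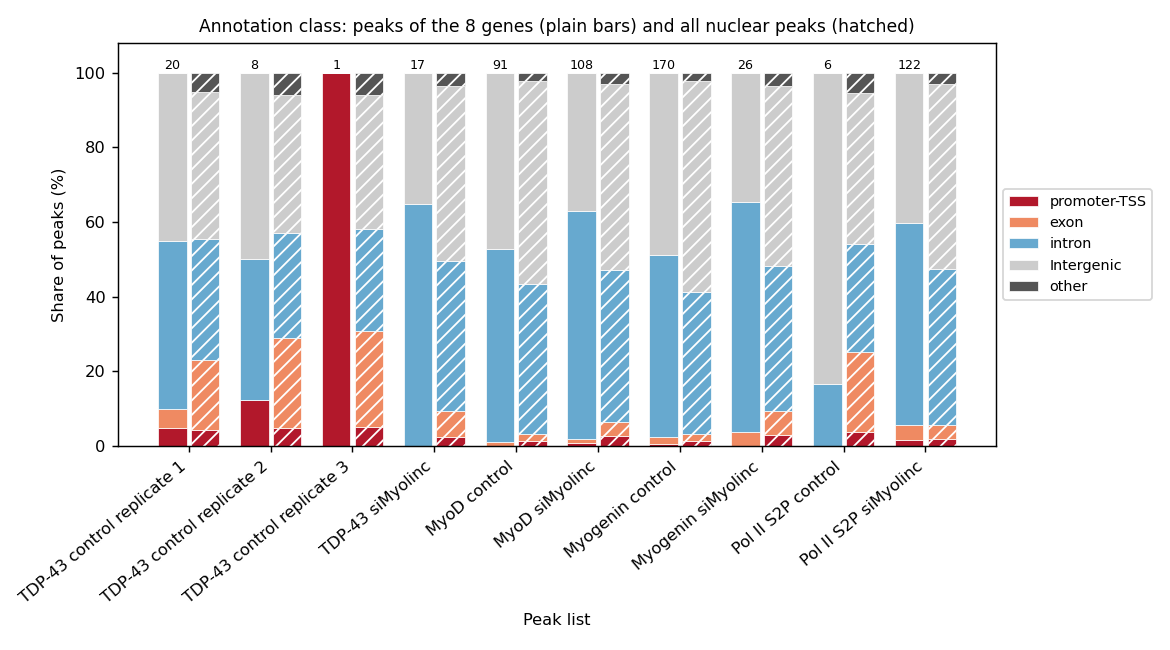
Share of peaks in each annotation class (%) in each list, for the peaks of the 8 genes (plain bars, their number above) and for all nuclear peaks (hatched bars). The intronic part of the plain bars is the larger one in MyoD, Myogenin and Pol II S2P siMyolinc lists, such as 61.1% against 40.8% in MyoD siMyolinc, and the exonic part of the TDP-43 control lists is nearly missing from the plain bars.

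The nearest-start rule left out much of what lay inside these genes. By their RefSeq spans, 765 peak centres fell inside the 8 genes, and 360 of them were named for another gene. Conversely, 164 of the 569 named peaks lay outside the span. Dmd showed this most: 288 peaks lay inside it, of which 128 were named for Tsga8, 109 for 1600014K23Rik and 51 for Dmd. The 51 all lay within the first 16.9% of the gene. Of the other 237, 233 were annotated to an intron and 3 to an exon of a Dmd transcript, so the class column placed them in Dmd where the name column did not. The exons were 29, 48 and 74 of 79, hit in Myogenin control (22 tags), MyoD control (10 tags) and MyoD siMyolinc (18 tags).

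For Sgcd 202 peaks lay inside the span, 50 named for Mir6380 and 24 for Timd4. All 128 peaks named Sgcd were inside, although 69 of them were called intergenic, because the RefSeq span begins upstream of the transcript used by the authors. Lama2 had 77 inside, 28 of them named for Arhgap18, and Dtna 60, 7 of them named for Mapre2. Utrn had 116 inside and all carried its name. Dag1 had 13 inside, 7 of them named for Bsn, Sgca had 7 with 5 named for Hils1, and Sgcb had 2, both named for Lrrc66. Counts per length below therefore use peaks whose centre lay inside the span.

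**Figure D4:**
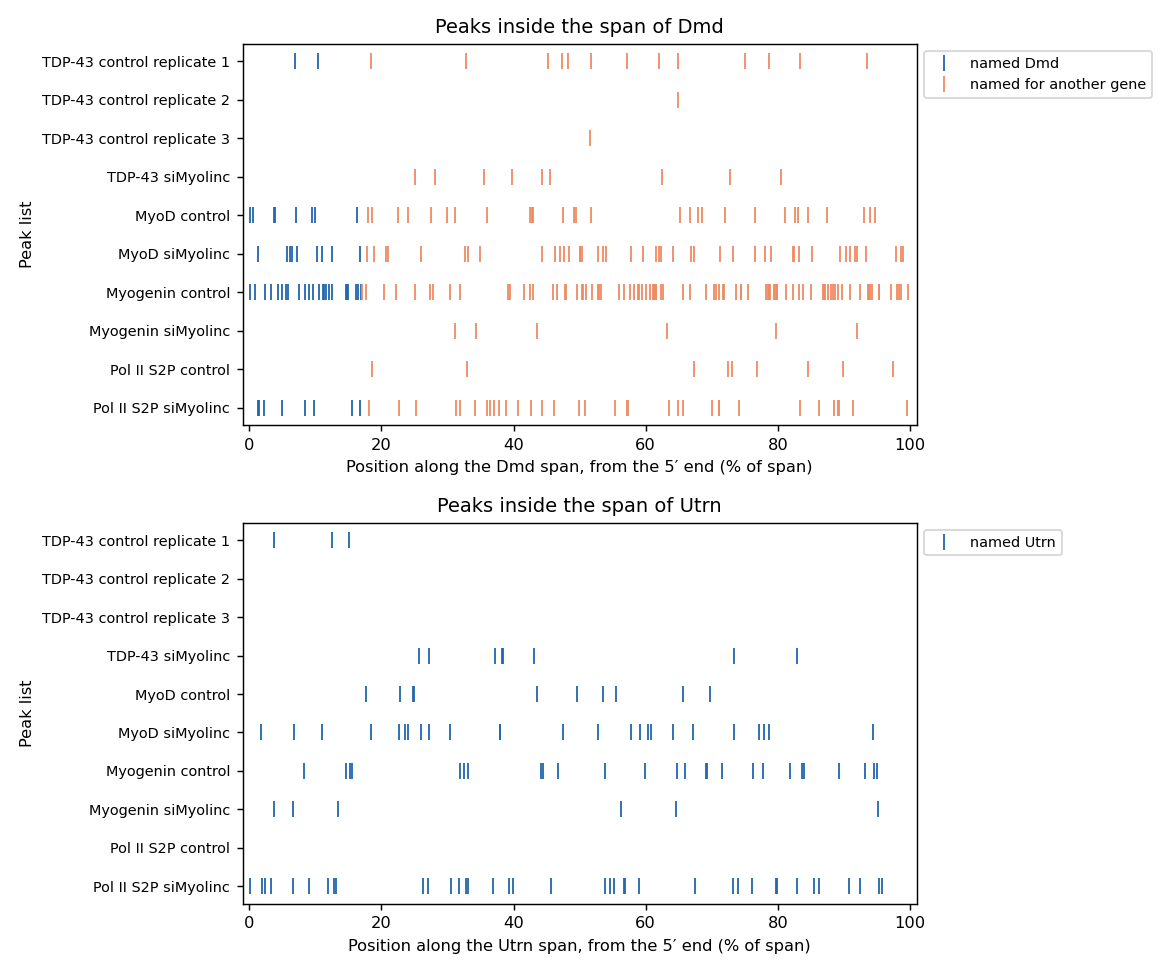
Position of each peak inside Dmd (top) and Utrn (bottom), as % of the gene's span from its 5′ end, one row per list; blue ticks were named for the gene and orange ticks for another gene. In Dmd the blue ticks end at 16.9% of the span, and in Utrn all 116 ticks are blue.

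Utrn had its highest density in Pol II S2P siMyolinc. Its 38 peaks gave 77.9 per Mb (55.1 to 107). The interval lay above the 47.6 per Mb of protein-coding genes of 100 kb or more but took in the 55.8 per Mb of all protein-coding genes. Ranked among the genes of 100 kb or more, 80.4% had a lower density. The peaks were spread along the gene, with 9, 10, 9 and 10 in its 4 successive stretches of equal length. Lama2, on the same chromosome, had 15 (23.6 per Mb, 13.2 to 38.9), so that the density on Utrn was 3.30 times that on Lama2 (1.78 to 6.46) and 4.43 times that on Dmd (2.78 to 7.05). In the Pol II S2P control list no peak lay inside Utrn, which allows up to 7.56 per Mb, while 9 lay inside Dmd, 2 inside Sgcd and 1 each inside Dtna and Lama2. The control list was far shorter (10716 against 116064 peaks), so these counts do not measure a change with knockdown.

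By point estimate, the order of Utrn and Lama2 was not the same in every list, but the intervals were wide and a change of order was not tested. In MyoD control Utrn had 10 peaks (20.5 per Mb, 9.83 to 37.7), fewer per length than Lama2 with 18 (28.3 per Mb), a ratio of 0.724 whose interval, 0.299 to 1.66, includes 1. In MyoD siMyolinc Utrn had 25 (51.3 per Mb, 33.2 to 75.7) and Lama2 14 (22.0 per Mb), a ratio of 2.33 (1.16 to 4.85). In Myogenin control they had 26 and 20, a ratio of 1.70 (0.910 to 3.20), and in Myogenin siMyolinc 6 and 4, a ratio of 1.96 (0.464 to 9.42). In TDP-43 siMyolinc Utrn had 8 peaks (16.4 per Mb, 7.08 to 32.3) and Lama2 2, a ratio of 5.22 (1.04 to 50.4). In the TDP-43 controls Utrn had 3, 0 and 0 and Lama2 2, 0 and 1.

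Dmd, the longest of the 8, was sparse in most lists. It had 37 peaks in MyoD control (15.5 per Mb, 10.9 to 21.3), 54 in MyoD siMyolinc (22.6 per Mb, 17.0 to 29.5) and 42 in Pol II S2P siMyolinc (17.6 per Mb, 12.7 to 23.8). Protein-coding genes on chromosome X as a whole had 25.5, 33.0 and 31.8 per Mb in these lists, above the intervals of Dmd. In Myogenin control Dmd had 114 peaks (47.7 per Mb, 39.3 to 57.3), close to the 46.7 per Mb of chromosome X genes and the 48.7 per Mb of all protein-coding genes. Its peaks there ran along the whole gene, with 28, 15, 34 and 37 in 4 successive stretches of equal length. After knockdown the Myogenin list held 6 peaks in Dmd (2.51 per Mb, 0.921 to 5.46) against 6.45 per Mb for chromosome X genes. In the TDP-43 controls it held 15, 1 and 1, and 9 after knockdown.

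Sgcd was densest in Myogenin control, with 66 peaks (64.8 per Mb, 50.1 to 82.5) against 47.6 per Mb for genes of 100 kb or more, below the interval of Sgcd. It had 38 in MyoD control (37.3 per Mb, 26.4 to 51.2), 35 in MyoD siMyolinc (34.4 per Mb, 23.9 to 47.8) and 43 in Pol II S2P siMyolinc (42.2 per Mb, 30.6 to 56.9). Dtna, the dystrobrevin gene, had 12 in each of MyoD control, MyoD siMyolinc and Pol II S2P siMyolinc (34.3 per Mb, 17.7 to 59.9) and 14 in Myogenin control (40.0 per Mb, 21.9 to 67.2), with intervals that overlap throughout. The short genes held at most 3 peaks inside their span in any list: Dag1 had 3 in each MyoD list, in Myogenin control and in Pol II S2P siMyolinc.

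**Figure D5:**
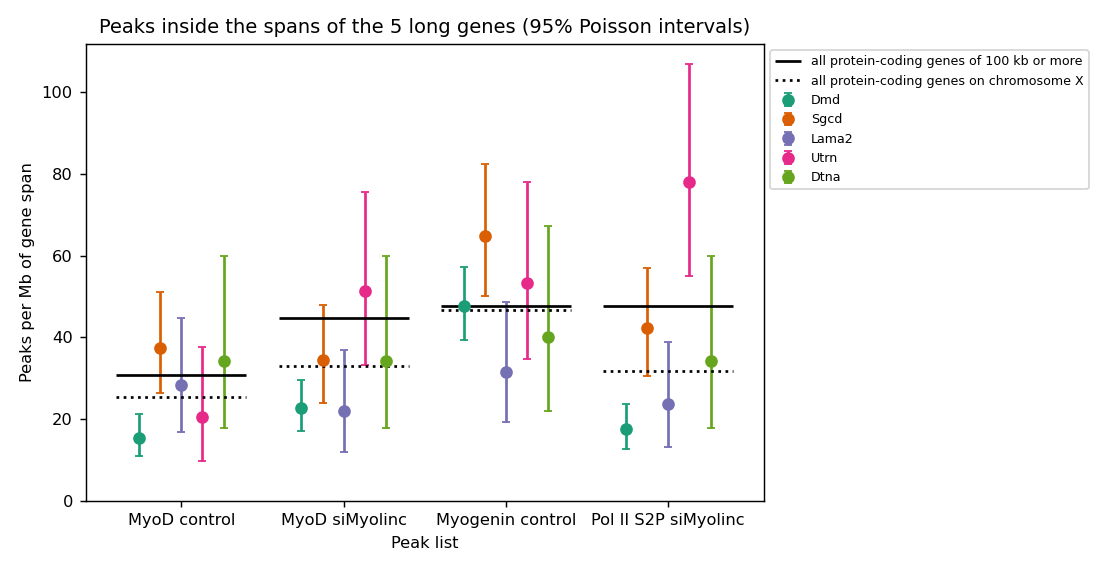
Peaks per Mb inside the 5 long genes in the 4 lists with the most member peaks; points are single genes with 95% Poisson intervals, solid lines give all protein-coding genes of 100 kb or more and dotted lines all protein-coding genes on chromosome X. Utrn in Pol II S2P siMyolinc is at 77.9 per Mb against a solid line at 47.6, and Dmd lies below the dotted line in 3 of the 4 lists.

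Taking the 8 genes as one length, named peaks per Mb were lower than over all protein-coding genes in each of the 10 lists. The ratios were 0.167, 0.187 and 0.0305 in the TDP-43 controls, 0.172 in TDP-43 siMyolinc, 0.324 and 0.2499 in MyoD, 0.380 and 0.321 in Myogenin and 0.140 and 0.265 in Pol II S2P, control before siMyolinc. Long genes as a class had fewer named peaks per Mb than all genes. Against all protein-coding genes of 100 kb or more, the 5 long members had ratios of 0.413, 0.415 and 0.0805 in the TDP-43 controls, 0.353 in TDP-43 siMyolinc, 0.545 and 0.466 in MyoD, 0.639 and 0.619 in Myogenin and 0.351 and 0.516 in Pol II S2P, again control first, and the 95% interval lay below 1 in each list. By centres inside the span the ratios to all protein-coding genes rose to between 0.151 and 0.752 in 9 lists and to 1.01 (0.886 to 1.14) in Myogenin control. Without Dmd the named ratios to all protein-coding genes were still below 1 in every list. Since Dmd makes up 48.1% of the summed span and 20.9% of the named peaks, Dmd weighs most in this measure. By centres inside the span, the members without Dmd were also set against all protein-coding genes of 100 kb or more. They had 31.8 against 30.9 per Mb in MyoD control, 50.4 against 47.6 in Myogenin control and 8.53 against 8.05 in Myogenin siMyolinc. In every other list they had fewer per Mb than those genes.

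Most places named for these genes were found in 1 list only. The 569 peaks fell on 535 separate sites, of which 29 were in 2 or more lists and 4 in 3 or more. A repeat was overlapped by 19 of the 29, while 246 of the 569 peaks lay in repeats. The share of such sites over all peaks was not computed, so these counts have no background. Of the 29, 9 were named for Sgcd, 6 for Utrn, 5 for Dtna, 4 for Dmd, 3 for Lama2, 1 each for Dag1 and Sgca and 0 for Sgcb. Some lay outside the span of the gene, such as the retroviral repeat 663788 bp before Dmd. The Sgcd start was the only one in 4 lists, 3 of them TDP-43 controls. It was also the only site of the 4 in 3 or more lists that was not in a repeat. Its peaks were joined as a chain of overlaps, since the Pol II S2P siMyolinc peak there overlapped only that of TDP-43 control replicate 3.

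Some recurrent sites of MyoD or Myogenin lay outside repeats. In Dag1, a MyoD peak in intron 1 was in both conditions, chr9:108227770-108228000 with 12 tags in the control and chr9:108227811-108227885 with 20 tags after knockdown. In Sgcd, a MyoD peak in intron 3 was in both conditions, with 13 and 16 tags. In Sgca, alpha-sarcoglycan, peaks of MyoD and Myogenin met in intron 2 after knockdown, chr11:94973280-94973354 with 22 tags and chr11:94973346-94973420 with 168 tags. Among peaks named for these genes, MyoD and Myogenin, in whichever condition, shared 5 sites. Of these, 3 were on Sgcd, 1 on Dtna and 1 on Sgca. The Dtna site and 1 of the Sgcd sites lay in repeats. Peaks inside Dmd that were named for another gene were left out of this count. MyoD siMyolinc and Myogenin siMyolinc each held such a peak at 92.0% of the Dmd span, with 37 and 114 tags. MyoD control and Myogenin control each held one at 42.5% of it, with 9 and 22 tags.

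TDP-43 control peaks on the 8 genes were found again in another control in 5 of 29 cases (17.2%, 7.60 to 34.5), against 32.1% of all TDP-43 control peaks, which lies inside that interval. Among peaks named for the 8 genes, the controls shared 1 place besides the Sgcd start, a retroviral repeat in intron 1 of Dtna. It held 5 tags in replicate 1 and 6 tags in replicate 2, and Pol II S2P control also had a peak of 6 tags there. By centres inside the spans, which take in peaks named for other genes, 7 of 36 were found again (19.4%, 9.75 to 35.0). Replicates 1 and 2 each held such a peak at 64.8% of the Dmd span, named for Tsga8, with 6 and 5 tags. None of the 29 was overlapped by a TDP-43 siMyolinc peak (0%, upper limit 11.7%, against 6.39% of all).

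For MyoD, 3 of 91 control peaks were found again after knockdown (3.30%, 1.13 to 9.25, against 1.77% of all peaks), the third being a LINE repeat upstream of Dtna. For Myogenin it was 0 of 170 (upper limit 2.21%, against 0.355%). For Pol II S2P it was 2 of 6 (33.3%, 9.68 to 70.0, against 10.5%), both in repeats: the retroviral repeat upstream of Dmd, with 8 and 19 tags and also 6 tags in TDP-43 control replicate 1, and a LINE repeat outside Utrn with 5 and 14 tags. In each of the 4 antibodies the share over all peaks lay within the members' interval.

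The other genes of the complex had promoter-TSS peaks in 9 of the 10 lists. None had one in all 3 TDP-43 controls, as Sgcd did, but only 0.283% of all protein-coding genes had one in all 3. The other genes numbered 29, among them further sarcoglycans, syntrophins, laminin chains and the enzymes that add sugars to dystroglycan. Of the 29, 8 had a span of 100 kb or more, against 2428 of the 21896 protein-coding genes. Genes of that length more often had a named peak in every list. The background below is not matched for length, and the part of length in the shares was not tested. At least 1 peak was named for 20, 8 and 9 of them (69.0%, 27.6% and 31.0%) in the TDP-43 controls, where the background over protein-coding genes was 49.2%, 26.8% and 22.3%, and for 20 (69.0%) in TDP-43 siMyolinc, where it was 45.1%. It was named for 26 (89.7%) in each of MyoD control, MyoD siMyolinc and Myogenin control, against 64.8%, 75.5% and 73%. In Myogenin siMyolinc it was named for 15 (51.7%, against 39.7%), in Pol II S2P control for 13 (44.8%, against 26.7%) and in Pol II S2P siMyolinc for 27 (93.1%, against 76.8%). A promoter-TSS peak was named for 1 (Sntg1), 3 (Plec, Sgce and Sntg1) and 2 (Dysf and Plec) in the TDP-43 controls (3.45%, 10.3% and 6.90%, against 5.08%, 2.11% and 1.64% of protein-coding genes) and for 0 after knockdown (against 2.5%). Pol II S2P siMyolinc had 6 (Bgn, Dysf, Lama4, Pomt2, Sntg1 and Sspn), 20.7% against 8.88% of protein-coding genes, and its control had 1 (Lama4), 3.45% against 1.54%. MyoD had 3 in each condition, 10.3% against 4.01% and 11.2%, and Myogenin had 2 in the control, 6.90% against 6.45%, and 1 after knockdown, 3.45% against 2.44%. These shares rest on counts of 0 to 6 genes, some lay close to the background, and their difference from it was not tested.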

How the data were processed

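The authors called peaks library by library, with IgG as the reference, and annotated them with HOMER on mm10, per the file headers and the submitters' processing notes. Which aligner, which HOMER version and which calling thresholds they used is not given in these sources. Input and IgG libraries were not analysed here. The peak score is the authors' deposited score. In each list 100% of scores, once the highest 1% were set aside, were whole multiples of one step within 0.05, and score divided by step was taken as tags. The focus ratio, a fraction deposited by the authors, and the distance to the start, also the authors', were used as descriptions.

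Peaks on the mitochondrial genome were left out. Spans came from RefSeq (GRCm38.p6, the mm10 assembly), where 22726 of 22838 gene names matched, and 7 of 8 members had a promoter window. Overlap meant 1 bp or more. Intervals were exact Poisson for counts, Wilson for shares and exact conditional for ratios, all at 95%, and reflect counting error only, because reads copied by PCR are not separate molecules. The only test was an exact permutation test over the TDP-43 libraries. Its p reflects the spread of 3 libraries that may be technical repeats. The named peaks were those at promoters or exons, those overlapped in another list and the best of each list, while peaks nearest to a start were added after their values were seen. Members and lists of genes were chosen with earlier results of these data known. Alternatives changed the score threshold, repeats, gene assignment, Dmd, list length, overlap and replicates. Python 3.11.15, numpy 2.4.6, pandas 2.3.3 and SciPy 1.17.1 were used, and the calculations were tested on simulated data.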

Additional observations from a re-analysis of the deposited data

Results flagged for a closer look

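By point estimate, the ratio of siMyolinc to control in the share of peaks on the 8 genes was above 1 in Pol II S2P and below 1 in MyoD and Myogenin, but each of the 3 intervals includes 1, and the Myogenin ratio was 1.13 without Dmd. That ratio in Pol II S2P was 2.41 times that in MyoD and 2.18 times that in Myogenin. Each antibody had 1 library per condition here, and the difference was not tested. By centres inside the spans the ratio in Pol II S2P was only 1.10 (0.625 to 2.11). It was then 0.811 (0.632 to 1.04) in MyoD and 0.646 in Myogenin, whose interval of 0.420 to 0.957 lay below 1. Pol II S2P also had the most unequal pair of lists in length, with 6 member peaks in the control.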

How the results depend on the processing

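Of 122 alternative values, 82 kept their direction and, TDP-43 shares apart, stayed within the 95% interval of the value reported, an interval that is wide where few peaks were counted. The TDP-43 share ratio was 2.67 in lists of equal length and 1.94 with the upper part of each list by score, from its median. It ranged from 0.952 to 1.71 without 1 control replicate and turned direction, to 0.952, without replicate 3. Myogenin turned to 1.13 without Dmd and was 0.646 (0.420 to 0.957) by centres inside the span. Pol II S2P moved to 7.19 (1.25 to 288) without repeats, where 1 control peak was left, and was 1.10 by centres inside the span. TDP-43 was 1.77 without repeats. Density relative to all protein-coding genes moved with gene assignment: by centres inside the span it was 0.281 in TDP-43 control replicate 1, 0.360 in TDP-43 siMyolinc, 0.752 and 0.560 in MyoD, 1.01 in Myogenin control, where the direction turned, 0.551 in Myogenin siMyolinc, and 0.407 and 0.559 in Pol II S2P. Without Dmd it was 0.292 in TDP-43 siMyolinc, 0.521 and 0.397 in MyoD, 0.513 and 0.571 in Myogenin and 0.431 in Pol II S2P siMyolinc. With the upper part by score it was 0.0898 and 0 in TDP-43 control replicates 1 and 3. Without repeats it was 0.0946 and 0.0652 in replicates 1 and 2 and 0.0355 in Pol II S2P control. Among genes of 100 kb or more, an alternative chosen after seeing the data, it was 0.413 and 0.415 in TDP-43 control replicates 1 and 2, 0.353 in TDP-43 siMyolinc, 0.545 and 0.466 in MyoD, 0.639 and 0.619 in Myogenin and 0.351 and 0.516 in Pol II S2P. In lists of equal length it was 0.0601 in TDP-43 control replicate 1, 0.504 in Myogenin control and 0.216 in Pol II S2P siMyolinc. The share of MyoD peaks found again was 0% with that upper part and 13.2% with peaks extended by 500 bp, and that of Pol II S2P was 0% without repeats and 0% inside spans. The share found again among TDP-43 controls ranged from 9.52% to 22.2% without 1 replicate, and after knockdown it was 0% each time. Sites in 2 or more lists numbered 19 without the 2 narrow lists and 10 without repeats, alternatives chosen after seeing the data. The cause of these shifts was not tested. No paired analysis was possible because the groups compared share fewer than 2 replicate numbers. At the depth of these libraries many peaks rest on 5 to 8 tags, so the absence of a peak from a list does not show that a place was unoccupied.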
